A study of Homo sapiens with 3 samples.

Results

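The forkhead family is described here through the chromatin peaks of an antibody to 1 of its own members, FOXM1. Its members were 43 genes named FOXA1 to FOXS1, all of which matched a symbol in the RefSeq table for GRCh38, out of 19974 protein-coding genes on chromosomes 1 to 22 and X. A peak was given to a gene where its summit, the position of highest enrichment, lay inside the gene or within 5 kb of it. By this rule the family held 44 of 8271 peaks in replicate 2 and 54 of 11502 in replicate 3. Chromatin came from untreated Huh7 cells, a single human hepatocellular carcinoma line, and was sequenced as 1 input library and 2 ChIP libraries, for which antibody G-5 against FOXM1 was used. ChIP libraries were numbered 2 and 3, and the labels do not say whether these came from separate cultures. All groups shared the line and the absence of treatment, and no ChIP with a different antibody or in FOXM1-deficient cells was analysed here, so whether a peak is specific to FOXM1 was not tested. Peak lists carry no RNA level, and whether the cells express liver markers could not be checked from them.

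Forkhead proteins share a winged-helix DNA-binding domain and differ in the parts around it, and the letter in a name marks the subfamily. FOXA factors are known as pioneer factors that open chromatin in the liver. FOXO factors are switched off by insulin signalling through AKT, while FOXM1 acts late in the cell cycle. Many other members are known from the embryo, where each patterns a limited set of tissues, and FOXK factors are found in most cell types and repress genes of autophagy. Forkhead proteins can bind one another's genes, which is the question these peaks bear on.

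Sequences of 250 bases directly before an annotated start, from the RefSeq promoter table (GRCh38.p14), are printed for FOXK1, FOXK2, FOXJ2, FOXD2 and FOXO6, where overlapping peaks of both libraries had their summits at most 350 bp before the outermost annotated start. FOXN3, called in replicate 3 alone, and FOXB1, a member with no peak, are printed for contrast. All run 5′ to 3′ on the gene's own strand, and capitals mark the GC box, GGGCGG or its reverse complement CCGCCC. FOXK1 is chr7:4682045-4682294 (plus), FOXK2 chr17:82519482-82519731 (plus), FOXJ2 chr12:8032466-8032715 (plus), FOXD2 chr1:47437794-47438043 (plus), FOXO6 chr1:41361184-41361433 (plus), FOXN3 chr14:89619166-89619415 (minus) and FOXB1 chr15:60004061-60004310 (plus).
FOXK1: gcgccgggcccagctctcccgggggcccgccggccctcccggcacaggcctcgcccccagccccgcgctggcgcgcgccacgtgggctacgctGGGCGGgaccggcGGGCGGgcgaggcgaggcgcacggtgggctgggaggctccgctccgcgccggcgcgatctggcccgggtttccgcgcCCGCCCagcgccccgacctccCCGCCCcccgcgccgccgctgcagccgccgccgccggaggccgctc
FOXK2: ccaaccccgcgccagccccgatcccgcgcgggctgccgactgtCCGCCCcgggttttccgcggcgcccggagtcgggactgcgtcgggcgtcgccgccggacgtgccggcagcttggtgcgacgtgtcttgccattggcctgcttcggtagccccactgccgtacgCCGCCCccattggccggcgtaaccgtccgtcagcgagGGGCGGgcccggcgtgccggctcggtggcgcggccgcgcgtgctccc
FOXJ2: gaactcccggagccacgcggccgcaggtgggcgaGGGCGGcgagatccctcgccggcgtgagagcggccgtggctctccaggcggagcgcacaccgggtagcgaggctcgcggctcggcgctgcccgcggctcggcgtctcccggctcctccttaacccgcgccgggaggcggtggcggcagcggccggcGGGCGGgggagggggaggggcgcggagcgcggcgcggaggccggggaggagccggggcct
FOXD2: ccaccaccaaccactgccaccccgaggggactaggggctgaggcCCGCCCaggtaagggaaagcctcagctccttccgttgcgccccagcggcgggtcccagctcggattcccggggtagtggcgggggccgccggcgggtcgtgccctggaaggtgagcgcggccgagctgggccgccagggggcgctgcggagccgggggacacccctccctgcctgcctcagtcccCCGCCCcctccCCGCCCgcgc
FOXO6: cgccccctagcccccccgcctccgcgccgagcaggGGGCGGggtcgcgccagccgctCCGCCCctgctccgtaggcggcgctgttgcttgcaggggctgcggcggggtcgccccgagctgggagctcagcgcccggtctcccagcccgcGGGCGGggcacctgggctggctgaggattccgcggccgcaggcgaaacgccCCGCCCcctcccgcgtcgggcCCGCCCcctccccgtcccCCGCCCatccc
FOXN3: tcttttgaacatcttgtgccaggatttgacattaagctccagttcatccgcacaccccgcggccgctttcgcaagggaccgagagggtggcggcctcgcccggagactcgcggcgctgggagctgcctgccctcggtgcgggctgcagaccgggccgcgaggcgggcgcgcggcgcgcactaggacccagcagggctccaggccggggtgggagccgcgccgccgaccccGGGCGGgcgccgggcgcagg
FOXB1: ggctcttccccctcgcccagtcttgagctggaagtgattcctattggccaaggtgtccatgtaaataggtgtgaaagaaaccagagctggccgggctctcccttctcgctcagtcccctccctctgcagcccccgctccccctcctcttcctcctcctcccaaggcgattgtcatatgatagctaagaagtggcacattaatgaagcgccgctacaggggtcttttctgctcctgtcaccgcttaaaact
These stretches hold 44 CG dinucleotides in FOXK1, 43 in FOXK2, 42 in FOXJ2, 24 in FOXD2, 34 in FOXO6 and 33 in FOXN3, against 8 in FOXB1. GC boxes number 4 in FOXK1, 3 in FOXK2, 2 in FOXJ2, 3 in FOXD2, 6 in FOXO6, 1 in FOXN3 and 0 in FOXB1. The forkhead site TGTTTAC was in none of them on either strand.

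Peaks stood at 23 of the 43 forkhead genes in replicate 2 (53.5%), against 33.3% of all protein-coding genes. In replicate 3 they stood at 28 members (65.1%), against 41.3% of all genes. Every member with a peak in replicate 2 also had 1 in replicate 3. So did 5688 of the 6661 protein-coding genes with a replicate 2 peak, and 4.87% of all genes were called in replicate 2 alone. Thus 23 members had peaks in both libraries, against 28.5% of all genes. At 19 members (44.2%) peaks of the 2 libraries overlapped by at least 1 bp, against 25.5% of all genes. At 4 members (9.30%) both libraries had peaks that did not overlap, against 2.97% of all genes. Another 5 (11.6%) were called in replicate 3 alone, close to the 12.9% of all genes, and 15 (34.9%) had no peak in either list, against 53.8%. The counts rest on weak peaks: with −log10 q of at least 5 in each library, 3 members (6.98%) had peaks in both, no more than the 7.43% of all genes, and the 3 also overlapped, against 6.36%. The lists hold only called peaks, the weakest of which had −log10 q of 1.32 (replicate 2) and 1.31 (replicate 3). A gene without a peak is therefore not shown to be unbound.

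Fold enrichment is the authors' ratio of ChIP signal to local background at the summit. The median over forkhead peaks was 3.91 in replicate 2 (range 2.47 to 6.45) and 4.06 in replicate 3 (2.30 to 6.09). Over all peaks the medians were 3.76 and 3.78. Median −log10 q of forkhead peaks was 3.40 in replicate 2 and 4.19 in replicate 3, against 3.82 over all peaks in each. A typical forkhead summit rested on 23.5 fragments in replicate 2 and 24.5 in replicate 3, counts rebuilt from the deposited fold and p, with a range of 16 to 47 and 17 to 39. At such counts the exact Poisson 95% interval is wide: it runs from 14.6 to 34.5 for 23 fragments. It covers counting error only. Median local background, rebuilt likewise, was 4.02 and 4.0 fragments at forkhead peaks, against 5.0 over all peaks in each library.

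**Figure D1:**
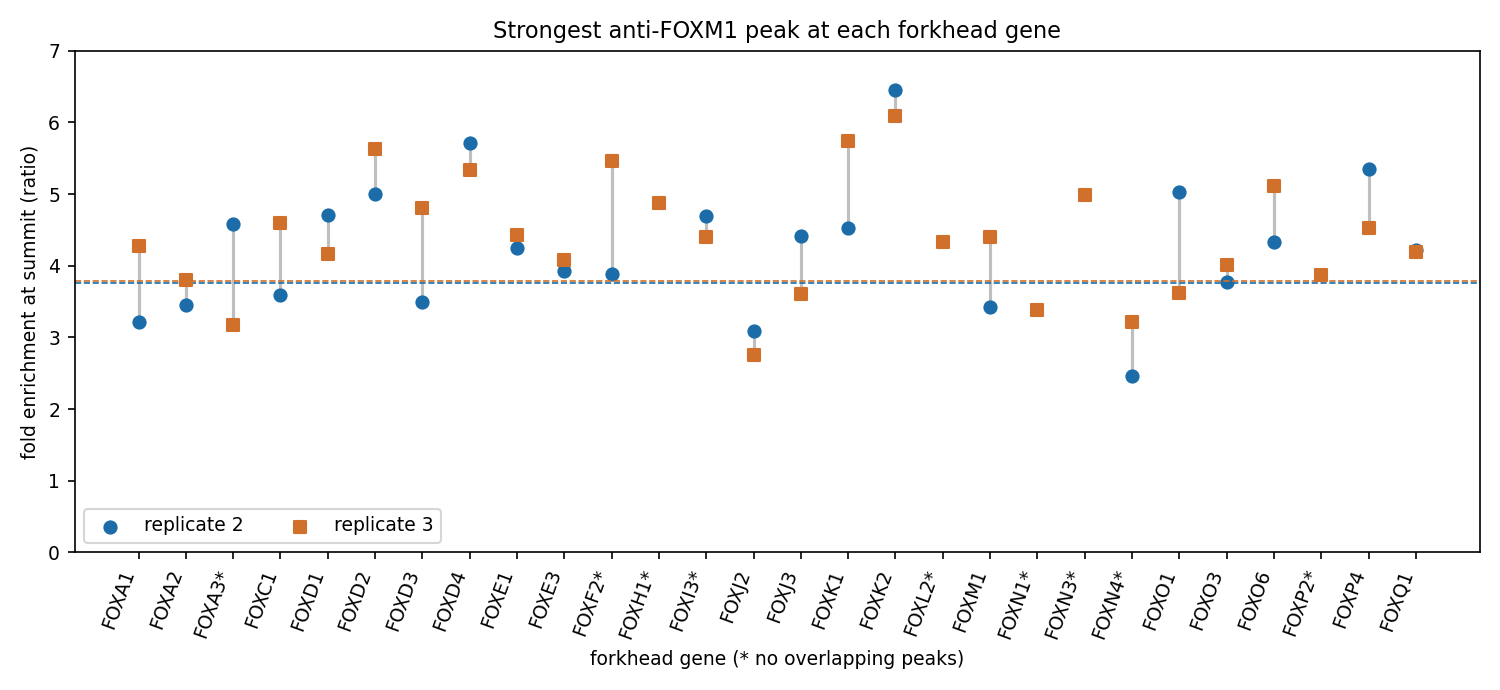
Fold enrichment (ratio, vertical axis) of the strongest peak at each of the 28 forkhead genes with a peak, circles for replicate 2 and squares for replicate 3, joined by a grey line where both libraries had a peak, with dashed lines at the medians of all peaks (3.76 and 3.78). An asterisk marks genes whose peaks did not overlap between libraries. FOXK2 is highest in both libraries and FOXN4 is lowest in replicate 2.

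FOXK2 and FOXK1 encode the forkhead proteins with an added forkhead-associated domain. At FOXK2 the strongest peak had fold 6.45 in replicate 2 and 6.09 in replicate 3, the highest of any forkhead gene in each library. Its summits lay 237 and 350 bp before the start, the first within the FOXK2 sequence printed above and the second beyond it. The fold exceeded that of 99.6% of all replicate 2 peaks and 99.1% of all replicate 3 peaks. The fragment counts behind it were ordinary: 29 in replicate 2, above 63.8% of peaks, and 26 in replicate 3, above 56.3%. The local background of 2.97 and 2.88 fragments was the lowest of each library. In replicate 2 FOXF2 and 1 FOXQ1 peak had the same background, with fold 3.88 on 17 fragments and 4.10 on 18. The part of the background in the FOXK2 fold was not tested. A second FOXK2 peak stood 516 and 543 bp after the start, with fold 2.85 and 4.20. Replicate 2 alone had another 66657 bp into the gene, where FOXK2-AS1 is also annotated, with fold 2.55 on 47 fragments over a background of 15.

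At FOXK1 the 2 libraries placed the summit within 4 bp of each other, 96 bp before the start in replicate 2 and 92 bp in replicate 3. Fold was 4.53 on 23 fragments and 5.74 on 28. Replicate 3 added a peak 278 bp after the start (fold 5.18), with none in replicate 2. The promoters of both FOXK genes hold 55 CG dinucleotides in 300 bases, the most of any forkhead promoter in the table.

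FOXM1, which encodes the protein the antibody is directed against, is a gene of 19495 bp on chromosome 12 (2857680 to 2877174). Its peak near the lower coordinate end had fold 3.42 in replicate 2 (chr12:2858969-2859120) and 4.41 in replicate 3 (chr12:2858636-2858971). The 2 peaks overlapped by 3 bp, the smallest overlap in the family, and their summits were 344 bp apart. The counts were 23 and 20 fragments. Summits with the count and, within 0.001, the background of the replicate 2 peak, 23 over 5.0, numbered 90 in that library, among them those at FOXD2 and FOXD3. Replicate 3 alone had a peak at the opposite end (fold 3.49), on 35 fragments over a background of 8.0. FOXM1 shares both ends with other genes, ITFG2 and RHNO1, to which these peaks could equally be given. FOXM1 was not in the promoter table, so its start was not used.

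The FOXA genes, which encode the liver's pioneer factors, had peaks in both libraries at all 3 members. At FOXA1 replicate 2 had a single peak, with fold 3.22 and −log10 q of 1.95, and replicate 3 had 4, with fold from 3.34 to 4.28. The overlap was 4 bp, inside the gene, with summits 3006 and 2914 bp after the start. Replicate 3 alone had a peak near the start, at 338 bp (fold 4.28). FOXA2 had 2 peaks in replicate 2 (fold 3.45 and 2.98) and 5 in replicate 3 (2.78 to 3.80), and those that overlapped had summits 29 bp apart with fold 2.98 and 3.10. Fragment counts at FOXA2 were high for the family, 34 and 34 in replicate 2 and from 27 to 39 in replicate 3. Its local background was high too, 7.66 and 9.0 in replicate 2 and 7.21 to 11.0 in replicate 3, against medians of 4.02 and 4.0 over forkhead peaks. FOXA3 had the only replicate 2 peak of the family with over 40 fragments near a gene start: 42 fragments, fold 4.58 and −log10 q of 8.81, at 32 bp after the start. No replicate 3 peak was called there. The replicate 3 peak (fold 3.17) lay 1103 bp before the start and 76 bp from SYMPK, the neighbouring gene.

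Of the 4 FOXO genes, whose proteins carry the response to insulin and stress, FOXO1, FOXO3 and FOXO6 had overlapping peaks. FOXO1, known for driving hepatic gluconeogenesis, had 2 peaks within its first 2 kb in each library. Fold was 5.03 and 4.98 in replicate 2 but 3.01 and 3.62 in replicate 3, and the counts were closer than the folds: 33 and 35 fragments against 30 and 28. Background at these summits was 4.76 and 5.17 in replicate 2 and 8.0 and 6.0 in replicate 3. Replicate 3 had 1 more FOXO1 peak, 399 bp before the start (fold 2.93). Its peak of fold 3.62 spanned 1011 bp, the widest in the family. FOXO3 had 4 peaks in each library and every one overlapped a peak of the other, from 1775 bp before to 817 bp after the first of its annotated starts. Their fold ran from 3.03 to 3.78 in replicate 2 and from 2.30 to 4.0 in replicate 3. FOXO6 had a peak at the start (fold 4.04 and 4.10, summits at 115 and 49 bp before it). It had another near its far end, 21205 and 20916 bp on, with fold 4.33 and 5.12. FOXO4, on chromosome X, had none.

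All 4 FOXD genes and both FOXE genes had overlapping peaks. FOXD proteins are known from kidney stroma and neural crest, FOXE1 from the thyroid and FOXE3 from the lens. Among start-site peaks that both libraries called, FOXD2 came after FOXK2 when ordered by the smaller of its folds, with fold 5.00 and 5.62 and summits 55 and 112 bp before the start, and 2 further peaks in replicate 2 (3.42 and 3.58). It and FOXK2 and FOXD4 were the 3 members with a fold of at least 5 in both libraries, and also the 3 with −log10 q of at least 5 in both. They made up 6.98% of members, against 1.04% of all genes for the fold and 7.43% for the q. FOXD3 had its summits 122 and 123 bp after the start, 1 bp apart, with fold 3.42 and 4.81, and replicate 2 had a second peak at 1467 bp (3.50). FOXD1 had 4 peaks in replicate 2 (fold 4.08 to 4.70) and 3 in replicate 3 (3.33 to 4.16), and the 3 pairs that overlapped lay inside this gene of 2512 bp. The peak that counted for FOXD4 (fold 5.71 and 5.34) lay outside it, 2437 and 2633 bp beyond the end opposite its start, with the next gene, ZNG1A, 7043 and 7239 bp away.

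Near copies of FOXD4 exist, and reads from them can be hard to place. None of the 5 copies in the gene table, FOXD4L1 and FOXD4L3 to FOXD4L6, had a peak in replicate 2. Replicate 3 had 1, beside FOXD4L6 (fold 4.20). Whether reads at FOXD4 map to a single place was not examined, and its value is uncertain for that reason. FOXE1 had 2 peaks in each library (fold 4.24 and 3.99, then 3.15 and 4.43), of which only the pair with summits 812 and 1066 bp after the start overlapped. FOXE3 had 2 peaks in replicate 2 (fold 3.42 and 3.93) and 1 in replicate 3 (4.08), inside a gene of 1768 bp.

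A pair of forkhead gene clusters that hold related members gave opposite pictures. On chromosome 6, FOXQ1, FOXF2 and FOXC1 lie within 311.8 kb, a span that includes 5 kb on either side, and all 3 had peaks in both libraries. On chromosome 16, FOXF1, FOXC2 and FOXL1 lie within 82.95 kb measured likewise, and none had a peak in either list. FOXF and FOXC proteins are known from mesoderm and its vessels, and FOXQ1 from epithelial cells, where it is linked to the loss of epithelial traits. The only peak between the chromosome 16 genes was in replicate 2 (chr16:86555038-86555277, fold 4.29), more than 5 kb from each. Among all genes of chromosome 6, 28.4% had a peak in replicate 2, 36.4% in replicate 3 and 23.8% in both. Among those of chromosome 16 the shares were 36.9%, 48.8% and 32.4%. Which property of the clusters goes with this difference was not tested.

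FOXQ1, a gene of 2661 bp, had the most peaks of any member over both libraries, 5 in replicate 2 and 4 in replicate 3. In replicate 2 their fold ran from 3.14 to 4.21 and in replicate 3 from 2.63 to 4.20, with 18 to 21 and 18 to 23 fragments. The summits of replicate 2 stood at 88, 723, 1102, 1746 and 4904 bp after the start, the last of them past the gene. Those of replicate 3 stood at 198, 861, 1347 and 1833 bp, and in the 4 pairs that overlapped the summits were 87 to 241 bp apart. FOXC1 had 2 peaks in each library inside the gene (fold 3.59 and 3.25, then 4.02 and 4.59), of which 1 from each overlapped by 74 bp. FOXF2 had fold 3.88 in replicate 2 at 359 bp after the start and 5.46 in replicate 3 at 123 bp, with no overlap.

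FOXJ2 and FOXJ3 are broadly expressed members, and both had overlapping peaks at a start, while FOXJ1, the regulator of motile cilia, had none. FOXJ2 was among the weakest members called in both libraries, with fold 3.09 and 2.75 and −log10 q of 2.82 and 1.68. Its summits, 71 and 86 bp before the start, were 15 bp apart. FOXJ3 had fold 4.41 and 3.60, with the peak over 2 inner starts, at 82 bp after and 145 bp before the nearest of them. The outermost FOXJ3 start has 8 CG dinucleotides in its promoter, and the inner starts have 41 and 38.

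FOXP proteins bind DNA as dimers, and FOXP3 defines regulatory T cells. Of the 4 genes, FOXP4 had overlapping peaks at its start, with fold 5.35 and 4.52 and summits at 127 and 194 bp. FOXP2 had a peak in replicate 3 alone (fold 3.87), 144 bp inside the outer end of the gene and far from the starts in the promoter table. FOXP1 and FOXP3 had none, although FOXP1, at 629271 bp the longest member, offers the widest target to the rule. Just past the window, replicate 3 had a peak 5340 bp from FOXP3 (fold 3.27).

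None of the 4 FOXN genes had overlapping peaks. FOXN3, which encodes a checkpoint suppressor, had a peak in replicate 3 alone, 28 bp before its start, with fold 4.99 and −log10 q of 6.63 on 27 fragments. FOXN1, the thymus factor, had 1 in replicate 3 only, 17697 bp into the gene (fold 3.38, −log10 q of 1.97). FOXN4 had a peak 743 bp before the start in replicate 2 (fold 2.47) and 133 bp after it in replicate 3 (fold 3.21), and the −log10 q of the first, 1.39, was close to the threshold. FOXN2 had none.

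Among the other developmental members, FOXI3 had fold 4.70 in replicate 2 at 75 bp before its start and 4.41 in replicate 3 at 405 bp after it, with no overlap. FOXI1 and FOXI2 had none. FOXH1, a partner of SMAD proteins in nodal signalling, had 2 peaks in replicate 3 alone (fold 4.88 and 4.16), the second of them inside the next gene, PPP1R16A. FOXL2, the ovary factor, also had 2 in replicate 3 alone. The first (fold 4.16) was 66 bp before its start and 14 bp from FOXL2NB, and the second (fold 4.34) was 4665 bp away, just inside the window. No peak was called at FOXB1, FOXB2, FOXR1, FOXR2 or FOXS1 either.

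All 3 members on chromosome X, FOXO4, FOXP3 and FOXR2, were without a peak. On this chromosome 6.96% of all genes had a peak in replicate 2 and 9.43% in replicate 3. All 5 members on chromosome 1 had overlapping peaks, against 24.0% of its genes.

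Where both libraries had a peak, they often did not mark the same base. The 19 genes held 32 overlapping pairs of peaks, whose summits were a median of 102.5 bp apart (range 1 to 468), against 101 bp over all 6028 such pairs in the genome. In 16 of the 32 pairs the summits lay within 100 bp. Fold was higher in replicate 2 in 16 pairs and higher in replicate 3 in 16, and the ratio of replicate 3 to replicate 2 ran from 0.598 to 1.64. A peak in the other library overlapped 70.5% of the forkhead peaks of replicate 2 and 55.6% of those of replicate 3, against 69.1% and 49.3% of all peaks.

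**Figure D2:**
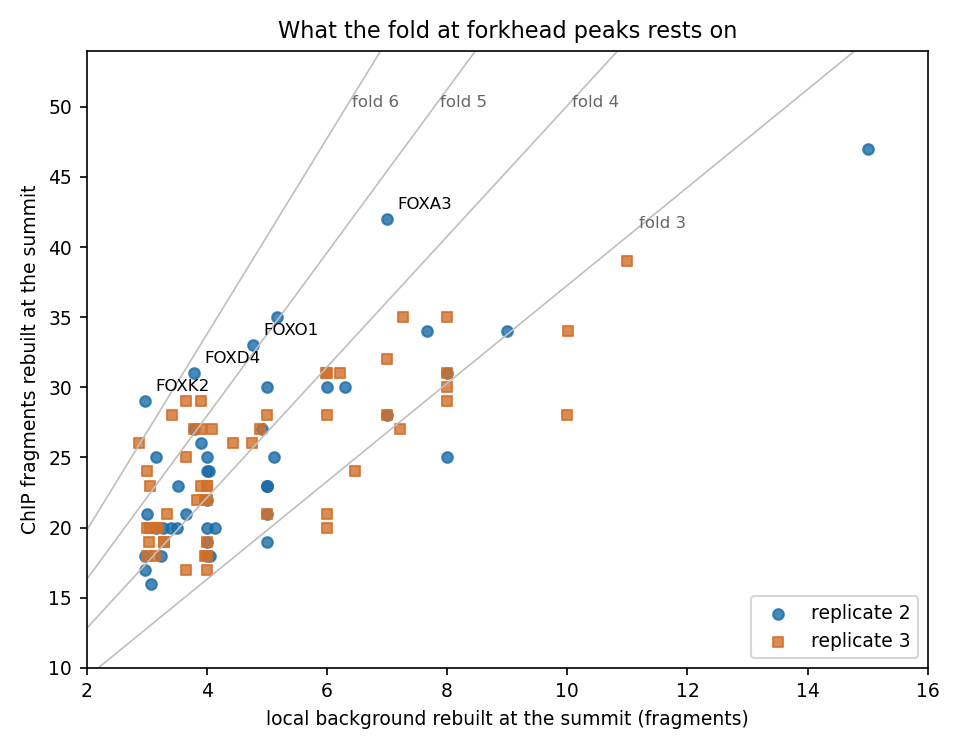
ChIP fragments rebuilt at the summit (vertical axis) against the local background in fragments (horizontal axis) for each forkhead peak, circles for replicate 2 and squares for replicate 3. Grey lines join points of equal fold at the mean scale of the libraries. In replicate 2, FOXK2 has 29 fragments over a background of 2.97 and FOXA3 has 42 over 7.0, with the lower fold.

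Most forkhead peaks lay at gene starts or shortly after them. For members in the promoter table, the summit lay 51 to 2000 bp after the nearest start for 20 of 39 peaks in replicate 2 (51.3%) and 22 of 44 in replicate 3. Over all protein-coding genes it was 38.6% and 36.4%. The window from 250 bp before to 50 bp after the start held 20.5% and 18.2% of forkhead summits, against 22.7% and 23.4% for all genes. Peaks over 5 kb from a start made up 5.13% and 11.4%, against 21.1% and 22.3%. Forkhead genes are short, with a median length of 5698 bp against 24171 bp for all protein-coding genes, and the part of gene length in these shares was not tested.

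**Figure D3:**
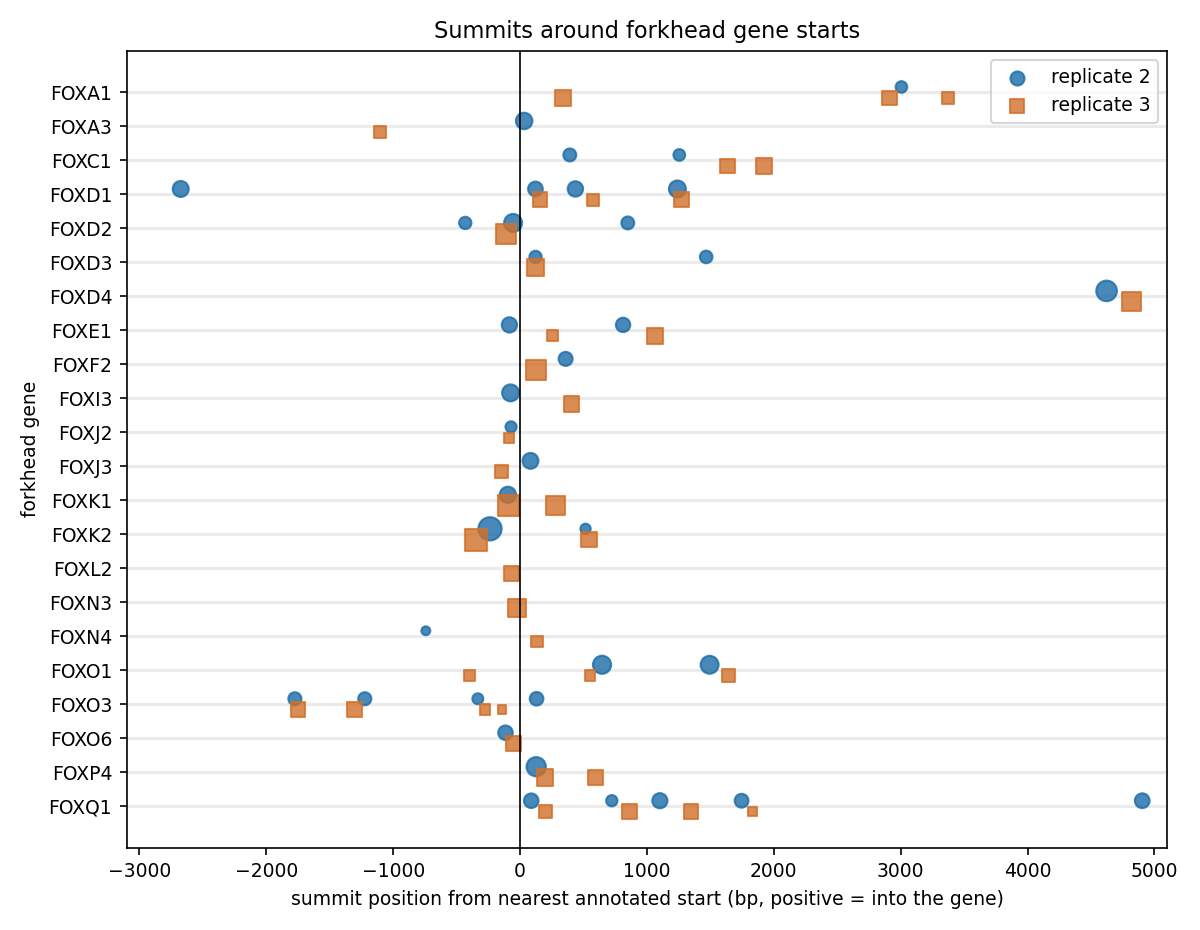
Position of each forkhead summit in bp from the nearest annotated start (horizontal axis, positive into the gene) for the genes in the promoter table, circles for replicate 2 and squares for replicate 3, with larger symbols for higher fold. Summits outside the drawn range are left out. FOXQ1, FOXD1 and FOXC1 carry several summits after the start, and FOXK1 and FOXJ2 carry summits of both libraries within 100 bp before it.

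Several short peaks on 1 gene were common in the family. Of the members with a peak, 12 of 23 had at least 2 in replicate 2 (52.2%, against 33.0% of all genes with a peak) and 15 of 28 in replicate 3 (53.6%, against 39.1%). FOXD1, FOXO3 and FOXQ1 had at least 3 in each library, 6.98% of members against 2.31% of all genes.

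The promoters of members with overlapping peaks were rich in CG dinucleotides. The table held 33 of the 43 members, with 300 bases each, and a gene with several starts was read at its outermost. The median was 33.5 CG dinucleotides in the 16 with overlapping peaks and 22 in the 9 without a peak, against 22 over 15812 protein-coding genes. Among all genes, the share with overlapping peaks rose from 10.1% of those with under 10 CG dinucleotides to 61.0% of those with at least 40. The forkhead counts were 1 of 3 below 10, 2 of 7 from 10 to 19 (17.8% of all genes), 2 of 8 from 20 to 29 (23.4%), 5 of 7 from 30 to 39 (40.2%) and 6 of 8 at 40 or more. The member below 10 was FOXJ3, whose peaks lay over inner starts with 41 and 38 CG dinucleotides. FOXD4, with 16, had its summits 4623 and 4819 bp from the start, so these classes do not always describe the sequence at the peak. The members at 40 or more without overlapping peaks were FOXN3, called in replicate 3 alone, and FOXP1.

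**Figure D4:**
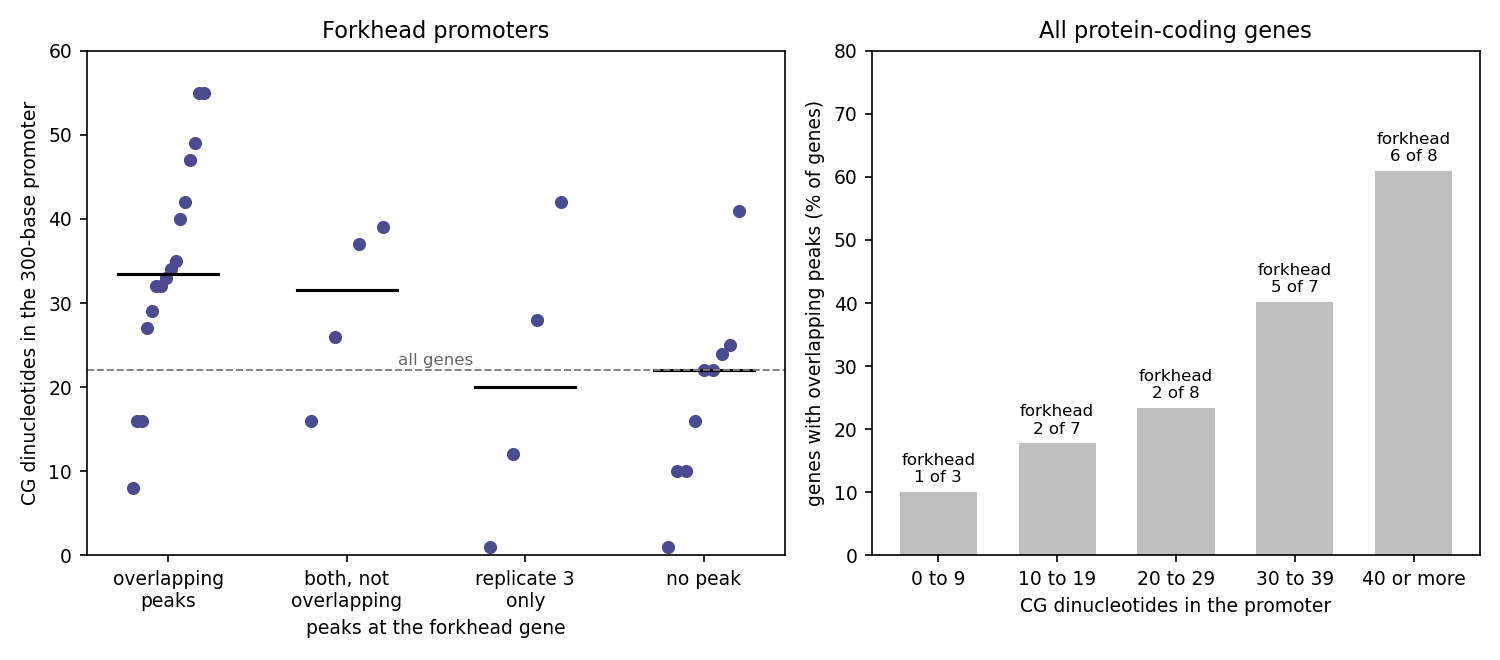
Left, CG dinucleotides in the 300-base promoter (vertical axis) of each forkhead gene in the promoter table, by its peaks, with black bars at the medians and a dashed line at the median of all protein-coding genes (22). Right, the share of all protein-coding genes with overlapping peaks (bars, %) by promoter CG count, with the forkhead count above each bar. The share rises from 10.1% to 61.0%.

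Motifs were read as exact letters on both strands of the same 300 bases. The forkhead site TGTTTAC was in 1 of 33 forkhead promoters, that of FOXO4, where it lies 23 to 29 bp after the start and where no peak was called. In all promoters its share was 2.68%, and in those of genes without a peak 3.11%. The shorter form TGTTTG was in 6 of 33, 4 of them with overlapping peaks (FOXA1, FOXD4, FOXJ3 and FOXQ1). It was in 12.3% of all promoters and in 8.46% of those with overlapping peaks. The overlapping peaks lay outside the 300 bases read at FOXA1 (summits 3006 and 2914 bp from the start) and FOXD4 (4623 and 4819 bp). At FOXJ3 they lay over inner starts, also outside the bases read. The cell cycle element called CHR, TTTGAA, was in 5 of 33, with overlapping peaks at FOXJ3 alone, against 12.2% of all. The box CCAAT was in 8 of 33, against 36.4% of all.

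The GC box GGGCGG was the motif found in most forkhead promoters, 24 of 33, against 58.3% of all. It was in 14 of the 16 promoters with overlapping peaks and in 3 of the 9 without a peak. Over all genes it was in 76.3% of promoters with overlapping peaks and 44.1% of those without a peak. The E-box CACGTG was in 3 of 33 promoters (FOXD3, FOXK1 and FOXP4, all with overlapping peaks), against 8.82% of all. The sites CCGGAAG (FOXR1), TGACGTCA (FOXD3) and GGCGGGAA (FOXD4), of the ETS, CRE and E2F kinds, were in 1 promoter each, against 14.1%, 2.56% and 4.24% of all. The AP-1 site TGACTCA was in none, against 3.62%. The E2F letters can overlap the GC box. A match is a string of letters, and no sequence under the peaks outside these windows was read.

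Genes named for or lying beside forkhead genes mostly shared the same peaks. FOXD2-AS1, FOXF2-DT and FOXP4-AS1 had no peak within 5 kb that was not already counted for FOXD2, FOXF2 or FOXP4. FOXL2NB, which the gene table lists as protein-coding, and FOXK2-AS1 had 1 shared peak each, in 1 library. FOXCUT, FOXD3-AS1 and LINC00261 each had 1 replicate 3 peak that was not counted for a forkhead gene, beside peaks that were. FENDRR and FOXC2-AS1, in the chromosome 16 cluster, had none, and neither did FOXP1-AS1, FOXN3-AS1 or FOXN3-AS2.

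Peaks were also common at genes that act on FOXO factors. Of 40 listed genes, 27 had overlapping peaks (67.5%, against 25.5% of all genes), 31 had a peak in replicate 2 (33.3% of all genes) and 33 in replicate 3 (41.3%), and 3 had none. Folds here are those of an overlapping pair of peaks, and in replicate 3 another peak was stronger at STK3 (6.71) and IGF1R (5.14). By the lower fold of the pair, the first was IRS1, an insulin receptor substrate (fold 6.14 in replicate 2 and 5.58 in replicate 3). The next was STK3, a kinase that phosphorylates FOXO proteins (5.24 and 5.49). PIK3R2, a PI3-kinase subunit (5.22 and 5.66), IRS2 (4.95 and 5.41), IGF1R, the IGF-1 receptor (5.07 and 4.70), and RICTOR, a subunit of the complex that activates AKT (4.62 and 4.87), followed in that order. The kinase genes AKT1 and AKT2 had lower values in the weaker library, 3.54 and 2.66. Listed genes were long, with a median of 69266 bp, and their promoters had a median of 39 CG dinucleotides. Overlapping peaks were found at 30.1% of all genes of 50 kb or more and at 61.0% of those with at least 40 CG dinucleotides, and the part of either in the list's share was not tested.

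Of 34 genes that act on or with FOXM1, 16 had overlapping peaks (47.1%, against 25.5% of all genes). A peak was called at 21 in replicate 2 and at 22 in replicate 3, where the shares of all genes were 33.3% and 41.3%, and 9 had none. Among those of highest fold in the weaker library were CTNNB1, which encodes beta-catenin (5.16 and 4.69), CCNA2, cyclin A2 (5.40 and 4.15), LIN54, a DNA-binding subunit of the MuvB complex (4.10 and 5.58), and CCND1, cyclin D1 (4.02 and 3.97). CCND1 had 9 peaks in each library. The mitotic kinase genes CDK1 and PLK1 had none, and CCNB1, cyclin B1, had 1 in replicate 2 alone (fold 2.56). Genes of this list had a median length of 33716 bp and a median of 29 CG dinucleotides in the promoter. Over all protein-coding genes these were 24171 bp and 22, and the part of either in the list's share was not tested.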

How the data were processed

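Peaks of 2 anti-FOXM1 ChIP libraries from untreated Huh7 cells were analysed; no peak list of the input library was used here. CASAVA 1.4, BWA, MACS2 2.2.7.1 and GRCh38 are named in the submitters' processing notes without roles. Each library had its own deposited peak list, with fold (a linear ratio over local background), −log10 p and −log10 q per summit, deposited by the authors, and a summit offset in bp, a unit of the other kind, deposited beside them; the deposited summit lists held the same positions and −log10 q. Filters and duplicate handling are not given in the sources used here.

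Fragment counts and backgrounds were rebuilt from fold, taken with a pseudocount of 1, and a Poisson p; 100% of peaks matched −log10 p within 0.001, at scales of 0.848 and 0.869. Which library served as control is not given in the sources used here, and total depth is unknown. The steps were tested on simulated data. Intervals are exact Poisson 95% intervals and cover counting error only.

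Genes came from RefSeq (GRCh38.p14), with 1-based coordinates. Starts and promoter sequences came from its promoter table, with 33 of 43 members; gene ends served where a start was not used. Exons and UTRs were not used here. No test was run, since no group of libraries was compared; counts stand beside the same share of all protein-coding genes.

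Members and lists were chosen with earlier results of these data known. Each member with a peak is named, and from the 2 lists up to 6 by the lower fold, of which some are not reported here; others singled out (AKT1, AKT2, CDK1, PLK1, CCNB1) were chosen after their values were seen, as were the classes by CG count, length and chromosome. Alternatives were windows of 1 and 10 kb, gene ends only, nearest gene only, stricter q or fold, other definitions of overlap and each library alone. Calculations ran in SciPy 1.17.1, pandas 2.3.3 and numpy 2.4.6 under Python 3.11.15, and plots in matplotlib 3.10.9.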

Additional observations from a re-analysis of the deposited data

How the results depend on the processing

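Counts of forkhead genes rested on weak peaks. With −log10 q of at least 5, forkhead genes with a peak in both libraries fell to 3, and those with overlapping peaks to 3, FOXD2, FOXD4 and FOXK2, 6.98% of members against 7.43% and 6.36% of all genes; with fold of at least 5 the same genes gave 3 and 3, against 1.04% and 0.876%. The q threshold left overlapping peaks at 10 of 40 genes of the FOXO list and 4 of 34 of the FOXM1 list, against 6.36% of all genes. Median forkhead fold, 4.02 over both libraries, was 4.93 and 5.41 under these thresholds, which select on fold or on a measure tied to it. Leaving out a library, it ran from 3.91 to 4.06. The forkhead genes with a peak then ran from 23 to 28, against 33.3% and 41.3% of all genes. With summits within 100 bp, or reciprocal overlap of at least 50%, 13 members had overlapping peaks, against 15.7% and 16.9% of all genes. With windows of 1 or 10 kb, gene ends only or the nearest gene only, overlapping members numbered 18 or 19. The share of all genes under these rules ran from 21.3% to 27.9%. The 1 kb window dropped FOXD4. No paired analysis was possible because the only 2 ChIP libraries belong to 1 group. A median of 23.5 and 24.5 fragments at a summit limits the detection of weak peaks.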
